A study of Gallus gallus with 5 samples.

Results

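The stretch of the chicken Z chromosome from 25 to 35 Mb surrounds the male hypermethylated locus (MHM) and is known as a region of dosage compensation. It was described here by the peaks of 2 histone arginine marks that chromatin immunoprecipitation with sequencing (ChIP-seq) found in it. A peak belonged to it when its chromosome was Z, its start was at or above 25000000 and its end at or below 35000000. This gave 1121 of the 425322 peaks in the 5 lists of the series, or 0.264%. H3R2me2s had 269 of 103231 peaks in replicate 1 and 357 of 120536 in replicate 2. H4R3me2a had 199 of 77936 peaks in replicate 1 and 241 of 113426 in replicate 2. Input chromatin, which no antibody had enriched, had 55 of 10193. Position alone chose these peaks from the lists, and no fold, width or height entered the rule. The rule was set with earlier results of these data known.

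Birds have ZZ males and ZW females, and most genes of Z are not evened out between the sexes over the whole chromosome. MHM is a tandem repeat that is DNA-methylated in males and transcribed into noncoding RNA in females, and genes near it are known for more equal expression between the sexes than other Z genes. DMRT1, the Z-linked gene that drives testis development, is known to lie beside MHM. In the RefSeq table of the later assembly GRCg7b, DMRT1 stands between KANK1 and DMRT3. That assembly differs from the build of the peak lists, so no gene was placed on the peaks. H4R3me2a, asymmetric dimethylation of arginine 3 of histone H4, is known from active chromatin. H3R2me2s, symmetric dimethylation of arginine 2 of histone H3, is known from open chromatin near promoters and distal sites.

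All libraries came from nuclei of immature (polychromatic) erythrocytes, the nucleated red cells of birds, labelled as being in G0. Chromatin was fixed with 0.5% formaldehyde and sheared to fragments of 200 bp. The labels give a size selection of 100 to 250 bp for both replicate 1 libraries and none for the others. There were 2 libraries of each mark and 1 of input chromatin. Each mark had a SOLiD library as replicate 1 and an Illumina library as replicate 2, and the input was sequenced on Illumina. Replicate number, platform, labelled size selection, depth, peak caller and control thus changed together. The labels give neither the sex nor the number of animals, give the breed as Bovan in the title and as Lohmann in another field of every library, and do not say whether libraries of a mark came from separate birds. Peak lists hold no expression and no DNA methylation, so neither the name of the region nor the cell type could be checked against them. Peaks from a mixed cell population do not tell fewer marked cells from less mark per cell.

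After removal of repeated positions the H3R2me2s libraries held 14.2 and 35.1 M tags in replicates 1 and 2, the H4R3me2a libraries 10.3 and 31.2 M, and the input 27.1 M. The alignment file numbers in the 3 Illumina headers did not match those in the labels (11 and 10, 12 and 11, 10 and 12 in the order above), while the run names did. Values are therefore given for each library, so that those of replicate 1 can be read without replicate 2.

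Both marks were sparse from 25 to 35 Mb compared with the rest of Z, and the stretches on either side of it were nearly as sparse. H3R2me2s had 26.9 peaks per Mb in replicate 1, against 42.2 per Mb in the other 64.6 Mb of Z, and 35.7 against 49.9 in replicate 2. H4R3me2a had 19.9 against 36.1 peaks per Mb in replicate 1 and 24.1 against 35.4 in replicate 2. All 4 ChIP lists were thus below the rest of Z, and the ratio of densities was 0.676 ± 0.0557 (SD, n = 2) for H3R2me2s and 0.616 ± 0.0924 (SD, n = 2) for H4R3me2a. Over the 4 ChIP libraries the mean log2 ratio of densities was −0.64 ± 0.164 (SD, n = 4), below 0 in 4 of 4 libraries (2-sided exact sign-flip permutation p = 0.125, the smallest that 4 libraries allow). These 4 libraries are 2 marks on 2 platforms and not 4 replicates of 1 condition. The SD therefore spans marks and platforms, and the p-value does not compare the window with other windows of Z. The input had 5.5 peaks per Mb in the window and 9.84 in the rest of Z, a ratio of 0.559. This input ratio was 1.01 when the last 5 Mb of Z were left out of the rest.

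Cover, the share of bases under a peak, gave similar ratios for the marks and another for the input. H3R2me2s peaks covered 2.16% of the window in replicate 1 and 2.61% in replicate 2, against 3.52 and 3.61% of the rest of Z. H4R3me2a peaks covered 1.71 and 1.52%, against 3.36 and 2.04%. The ratio of cover was 0.669 ± 0.0775 (SD, n = 2) for H3R2me2s and 0.627 ± 0.167 (SD, n = 2) for H4R3me2a, and the mean log2 ratio over the 4 libraries was −0.64 ± 0.253 (SD, n = 4; 2-sided exact sign-flip permutation p = 0.125, the smallest possible). The limit given above for the 4 libraries holds for cover too. The input covered 0.22% of the window and 0.24% of the rest, a ratio of 0.915. This input ratio was 0.483 without the block of input peaks described further on, and 1.98 when the last 5 Mb of Z were left out of the rest.

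The difference between the marks in these ratios was tested over 2 libraries each. The log2 ratio of densities was lower for H4R3me2a than for H3R2me2s by a mean difference of −0.14 (H4R3me2a minus H3R2me2s; 2-sided exact permutation p = 0.667 over 2 against 2 libraries, which cannot go below 0.333). Within replicates, which pair the marks by platform, it was −0.21 in replicate 1 and −0.07 in replicate 2, lower for H4R3me2a in both (2-sided exact sign-flip permutation p = 0.5, the smallest 2 pairs allow). For cover the mean difference was −0.11 (2-sided exact permutation p = 1.0), with −0.27 in replicate 1 and 0.04 in replicate 2. With 2 libraries per mark, neither a difference nor its absence was shown.

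Set beside single windows of Z, the window was at or near the bottom in every ChIP list. Of the 5 other full windows of 10 Mb on a grid anchored at 25 Mb, 1 had a lower density in H3R2me2s replicate 1 and 0 in the other 3 ChIP lists. The window before it, from 15 to 25 Mb, had 26.3 and 39.5 H3R2me2s peaks per Mb and 23.1 and 24.5 H4R3me2a peaks per Mb in replicates 1 and 2. The window after it, from 35 to 45 Mb, had 31.1 and 41.4 for H3R2me2s and 23.2 and 28.6 for H4R3me2a. The low values thus extended beyond the window on both sides. From 45 to 55 Mb the densities were 37.0 and 45.1 for H3R2me2s and 29.7 and 28.4 for H4R3me2a. From 55 to 65 Mb they were 35.8 and 39.0 for H3R2me2s and 33.3 and 29.1 for H4R3me2a. In replicate 2, H3R2me2s from 55 to 65 Mb and H4R3me2a from 45 to 55 Mb lay below their values from 35 to 45 Mb. From 5 to 15 Mb the densities were 54.5 and 65.4 for H3R2me2s and 46.7 and 46.6 for H4R3me2a. In the end piece from 65 to 74.6 Mb they were 62.9 and 63.8 for H3R2me2s and 53.6 and 54.7 for H4R3me2a.

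By cover the window was lowest in H3R2me2s replicate 2 alone. In the other 3 ChIP lists 1 of the 5 grid windows was lower, the one from 15 to 25 Mb, with 1.67% for H3R2me2s replicate 1 and 1.51 and 1.41% for H4R3me2a. In the input all 5 grid windows had lower cover, between 0.0337 and 0.147%, although 1 of 5 had a lower density. The block of input peaks described further on held 14.5 and 6.53% of the bases covered by H3R2me2s in the window. For H4R3me2a it held 18.2 and 9.56%, and for the input 47.5%. No rank by cover was computed without this block, so the ranks by cover may depend on it. Among 91 windows of 10 Mb in steps of 500 kb that did not touch 25 to 35 Mb, density was lower in 8 for H3R2me2s replicate 1 and in 0 for the other 3 ChIP lists. By cover 13 and 3 of them were lower for H3R2me2s in replicates 1 and 2 and 14 and 11 for H4R3me2a. Of 84 windows of 10 Mb on the autosomes, 1 had a lower density in H3R2me2s replicate 1, 0 in replicate 2, 2 in H4R3me2a replicate 1 and 0 in replicate 2. The median autosomal window had 68.4 and 102 H3R2me2s peaks per Mb and 49.2 and 94.5 H4R3me2a peaks per Mb. These are ranks of windows, which share libraries and neighbouring chromatin, and no test was made over windows. The labels give no sex, so the number of Z copies per cell is not known. Its part in the difference between Z and the autosomes was not tested. The same holds for the later comparisons of Z with whole lists or all chromosomes.

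**Figure D1:**
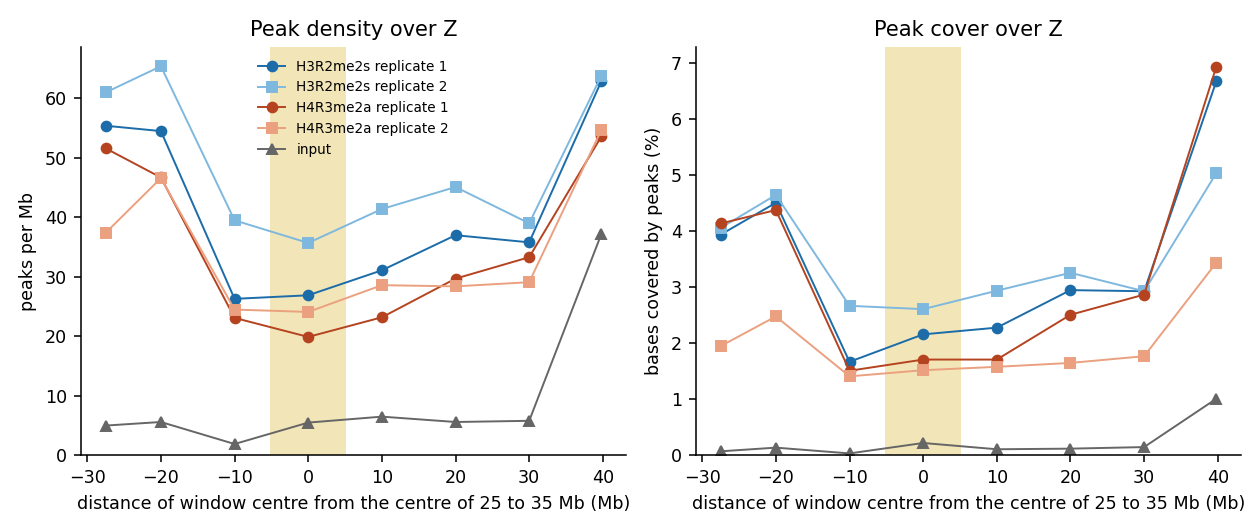
Peaks per Mb (left) and percent of bases covered (right) in windows of Z, by distance of the window centre from the centre of 25 to 35 Mb (Mb), with 1 point per list; the shaded band is the window, the first point is a window of 5 Mb and the last one of 9.6 Mb. The 4 ChIP lists lie between 19.9 and 35.7 peaks per Mb in the band and between 53.6 and 63.8 at the far end.

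The window took in part of a stretch with no peak in any list. The stretch ran over 1507 kb at chromosome Z:24138943-25645610 and was the longest on Z, where the next, at chromosome Z:36094278-36287614, was 193 kb long. Of it, 646 kb lay inside the window, and 9.35 Mb of the window remained. Whether reads can be placed there was not tested, because no genome of this build was used here. With the stretch left out of all lengths, the window had 28.8 and 38.2 H3R2me2s peaks per Mb and 21.3 and 25.8 H4R3me2a peaks per Mb. The window from 15 to 25 Mb then had 28.8, 43.2, 25.3 and 26.8 in the same order. Of the 91 windows, 12, 5, 0 and 5 then had a lower density than 25 to 35 Mb. By cover, 2 of 5 grid windows were then lower in H3R2me2s replicate 1 and in both H4R3me2a lists, and 0 of 5 in H3R2me2s replicate 2.

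No peak of any list crossed an edge of the window. At the upper edge the last peak inside and the first outside had deposited folds of 7.73 and 7.94 in H3R2me2s replicate 1 (chromosome Z:34966567-34967205 and Z:35080122-35081004). In H3R2me2s replicate 2 they had folds of 3.93 and 2.67, in H4R3me2a replicate 1 folds of 10.3 and 18.2, in H4R3me2a replicate 2 folds of 3.1 and 3.46, and in the input folds of 4.6 and 16.0. At the lower edge the empty stretch lay between the last peak outside, at chromosome Z:24138154-24138942 in H3R2me2s replicate 1 with a fold of 7.21, and the first inside, at chromosome Z:25645611-25646034 with 8.07.

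Within the window, cover was uneven, and 1 bin of 500 kb stood above the other 19 in all 5 lists. At chromosome Z:27500001-28000000 H3R2me2s peaks covered 6.99% in replicate 1 and 6.43% in replicate 2, and H4R3me2a peaks covered 7.17 and 4.88%. In the other 19 bins cover went up to 3.24 and 4.74% for H3R2me2s and up to 2.85 and 2.64% for H4R3me2a. Input peaks covered 2.15% of this bin and at most 0.853% of any other, with a median of 0.0378%. In replicate 1 the bin held 12 peaks of each mark, against medians of 15 for H3R2me2s and 10 for H4R3me2a in the other 19 bins. In replicate 2 it held 30 for H3R2me2s and 23 for H4R3me2a, against medians of 17 and 10. The input had 16, against a median of 1. Of the 149 bins of 500 kb on Z, 12 had higher H3R2me2s cover in each replicate, 11 and 7 had higher H4R3me2a cover in replicates 1 and 2, and 1 had higher input cover.

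The bins of next highest mean rank over the ChIP lists were chromosome Z:31500001-32000000 and chromosome Z:34000001-34500000. The first was covered to 3.08 and 3.06% by H3R2me2s and to 2.85 and 2.11% by H4R3me2a. The second was covered to 2.9 and 3.16% by H3R2me2s and to 2.41 and 2.01% by H4R3me2a. These 3 bins were also the 3 with the highest input cover in the window, at 2.15, 0.517 and 0.853% in the order named. The part of the input in their rank was not tested. The lowest bins were chromosome Z:25000001-25500000, which held no peak of any list, then chromosome Z:32000001-32500000 and chromosome Z:32500001-33000000. In these last 2 bins H3R2me2s covered 0.921 to 1.48% and H4R3me2a 0.406 to 0.864%, and neither held a base covered in all 4 ChIP lists.

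**Figure D2:**
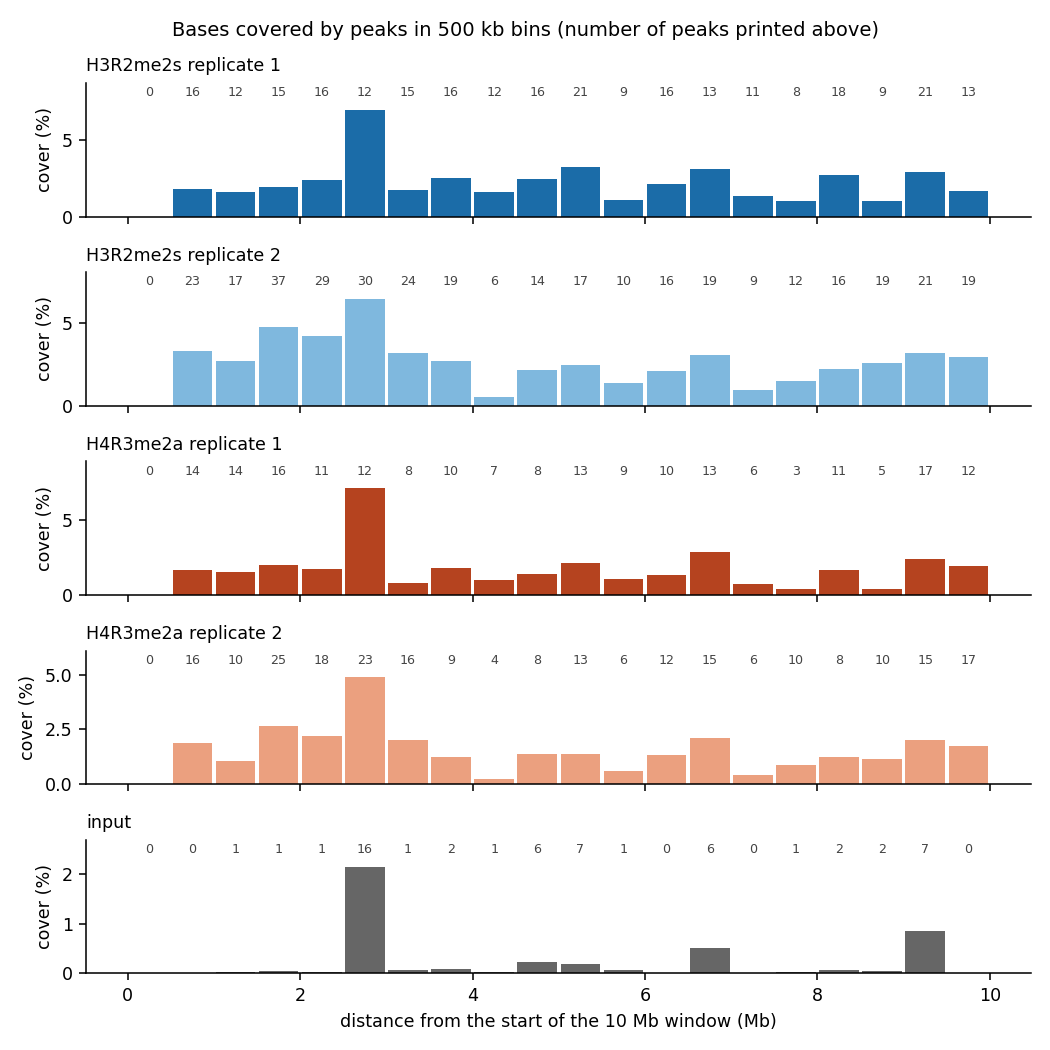
Percent of bases covered by peaks in each of the 20 bins of 500 kb, by distance from the start of the window (Mb), 1 panel per list, with the number of peaks printed above each bar and a separate scale per panel. The bin from 2.5 to 3.0 Mb is the highest in every panel, from 2.15% in the input to 7.17% in H4R3me2a replicate 1.

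By cover, marks measured on 1 platform followed each other over the 20 bins more closely than replicates of 1 mark did. Spearman's rho of cover between marks was 0.86 on SOLiD (replicate 1) and 0.92 on Illumina (replicate 2). Between replicates it was 0.54 for H3R2me2s and 0.76 for H4R3me2a. For numbers of peaks this order did not hold throughout: rho was 0.6 and 0.92 between marks, and 0.41 for H3R2me2s and 0.65 for H4R3me2a between replicates. Over the 129 bins of the rest of Z the rho of peak numbers was 0.85 and 0.87 between marks and 0.76 and 0.75 between replicates. For cover it was 0.9 and 0.93 between marks and 0.8 for each mark between replicates. By cover the rest of Z thus had the same order as the window. Bins share libraries, depth and base composition, so these are descriptions. In 2 bins chosen after their values were seen, the replicates parted in opposite ways. At chromosome Z:26500001-27000000 H3R2me2s had 15 peaks in replicate 1 and 37 in replicate 2, and at chromosome Z:29000001-29500000 it had 12 and 6.

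Inside the high bin lay a block of 44.9 kb at chromosome Z:27927401-27972268, in which 14 input peaks followed each other at distances of at most 10 kb. The block was singled out after its values were seen. It made up 0.449% of the window and held 14.5% of the bases covered by H3R2me2s in replicate 1 and 6.53% in replicate 2. For H4R3me2a it held 18.2 and 9.56%, and for the input 47.5%. H3R2me2s peaks covered 69.8% of the block in replicate 1 and 38.0% in replicate 2, H4R3me2a peaks 69.5 and 32.3%, and input peaks 23.2%.

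The widest peaks of the window lay in this block in all 5 lists. In H3R2me2s replicate 1 the peak at chromosome Z:27936201-27952239 was 16039 bp wide with 4872 tags and a deposited fold of 22.9. It ranked 13 by width among the 103231 peaks of its list. In H4R3me2a replicate 1 the peak at chromosome Z:27932996-27952240 was 19245 bp wide with 5000 tags and a fold of 26.3, and ranked 5 among 77936. The Illumina lists broke this stretch into narrow peaks. Their widest peaks lay at the left end of the block, at chromosome Z:27927377-27931404 for H3R2me2s with 4028 bp and at chromosome Z:27927860-27931461 for H4R3me2a with 3602 bp. The widest input peak, at chromosome Z:27952729-27955611, was 2883 bp wide, ranked 1 on Z and 4 in its list, and H3R2me2s and H4R3me2a peaks covered it to 100% in both replicates.

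Tags were dense in the block. In replicate 1 it held 51.0% of all tags in H3R2me2s peaks of the window and 57.2% of those in H4R3me2a peaks. Its peaks held 484 tags per kb for H3R2me2s and 403 for H4R3me2a, against medians of 57.0 and 48.6 in the 261 and 193 other peaks. In the Illumina lists the median pileups of the block peaks were 334 for H3R2me2s, 257 for H4R3me2a and 71.0 for the input. The other peaks of the window had medians of 38.0, 29.5 and 21.0. The highest pileups in the block were 650, 467 and 140, against 437, 263 and 98.0 in the other peaks. With 1 tag kept per position and strand, a pileup cannot exceed 2 times the fragment length the caller used (334, 236 and 99 bp). The highest pileups of the whole lists were 668, 472 and 198, exactly these limits. The block reached 97.3% of the limit in H3R2me2s, 98.9% in H4R3me2a and 70.7% in the input. Raw pileups also grow with depth and fragment length, so they do not compare the ChIP lists with the input. The mean cover of these libraries was 11.7, 7.37 and 2.68 fold, over an effective genome of 1000000000 bp. Relative to it, the highest pileups of the block were 55.5, 63.4 and 52.2 times. The ChIP heights lie close to the limit, so no difference from the input was read from them.

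The deposited fold enrichment of the block had opposite ranks on the platforms. In replicate 1, where the fold is relative to a control library, its median was 14.1 for H3R2me2s and 16.2 for H4R3me2a, against 7.77 and 9.36 in the other peaks of the window. In replicate 2, where the fold is relative to the surroundings in the same library, its median was 1.96 and 2.57, against 2.98 and 3.53. The input peaks of the block had a median fold of 3.04, against 5.68 in the other 41 input peaks. Folds of the platforms rest on different backgrounds, and only the order within a list was read. The sequence of the block, and whether it holds MHM or another repeat, was not determined.

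Sites found in every ChIP list were few from 25 to 35 Mb. There were 70 regions covered by a peak in all 4 ChIP lists, 7.0 per Mb against 14.4 in the rest of Z, a ratio of 0.485. On the grid this density was 6.6 per Mb from 15 to 25 Mb and 8.7 from 35 to 45 Mb, against 19.0 from 5 to 15 Mb. The regions covered 46.5 kb, had a median width of 448 bp against 428 bp in the rest of Z, and lay a median of 57.8 kb apart. They fell into 42 of the 100 bins of 100 kb. By contrast, H3R2me2s had peaks in 89 of these bins in replicate 1 and 90 in replicate 2, H4R3me2a in 80 and 81, and the input in 26. Only 6 bins of 100 kb held no ChIP peak at all.

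Many of these common sites lay on input peaks. Of the 70 regions 26 did, or 37.1%, against 8 of 66 from 15 to 25 Mb and 15 of 87 from 35 to 45 Mb. From 5 to 15, 45 to 55 and 55 to 65 Mb they were 17 of 190, 20 of 115 and 23 of 133. In the end piece from 65 to 74.6 Mb 110 of 260 did, a larger share than in the window. The share of such regions on input peaks was not computed over all chromosomes. The block held 12 of the 70 regions, 9 of them on input peaks, and 26.7% of their bases. Outside the block 17 of 58 were on input peaks. Without peaks that overlap an input peak, the ratio of 0.485 became 0.375.

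The 5 widest regions of all 4 lists overlapped input peaks as well. They were chromosome Z:27952671-27955663 (2993 bp), Z:27928724-27931404 (2681 bp), Z:31984930-31987246 (2317 bp), Z:27970363-27972394 (2032 bp) and Z:31973645-31975463 (1819 bp). The first had deposited H3R2me2s folds of 15.5 and 3.11 and H4R3me2a folds of 22.0 and 3.3 in replicates 1 and 2, and an input fold of 3.91. The region at Z:31984930-31987246, outside the block, had H3R2me2s folds of 16.9 and 3.34 and H4R3me2a folds of 38.5 and 3.49, the highest H4R3me2a fold of the window in replicate 1. The widest without an input peak was Z:29865893-29867319, ranked 7 by width with 1427 bp, and its folds were 4.56 and 5.58 for H3R2me2s and 3.59 and 5.84 for H4R3me2a.

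Common regions formed 60 chains when gaps of up to 2 kb were bridged. The longest 3 lay in the block, at chromosome Z:27968757-27972394 (3.64 kb), Z:27928032-27931404 (3.37 kb) and Z:27952671-27955663 (2.99 kb). Input peaks covered 57.4, 76.4 and 96.3% of them.

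By deposited fold enrichment, the 5 regions with the best mean rank over the 4 ChIP lists all lay on input peaks. The first was chromosome Z:33158446-33158867, with H3R2me2s folds of 17.6 and 6.75, H4R3me2a folds of 28.3 and 9.66 and an input fold of 5.14. It was followed by Z:34082985-34084560, Z:31973645-31975463, Z:34106571-34107814 and Z:30020209-30020974, with input folds of 5.65, 7.65, 9.36 and 6.76. The best region off input peaks was Z:26497162-26497500, ranked 8, where H4R3me2a had folds of 17.7 and 11.6 and H3R2me2s folds of 7.47 and 6.99. This site of 339 bp was picked by these folds, so their height is not a separate result. Its H3R2me2s fold in replicate 1 lay below the window median of 7.91.

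The order by fold agreed between the marks of 1 platform and not between platforms. Over the 70 regions Spearman's rho between marks was 0.6 on SOLiD and 0.85 on Illumina. Between replicates it was −0.21 for H3R2me2s and −0.21 for H4R3me2a. Over the 44 regions off input peaks rho was 0.26 and 0.69 between marks and −0.26 and −0.22 between replicates. Several regions of the block lie on 1 wide peak of replicate 1 and share its fold, and the points also share libraries, so these are descriptions.

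**Figure D3:**
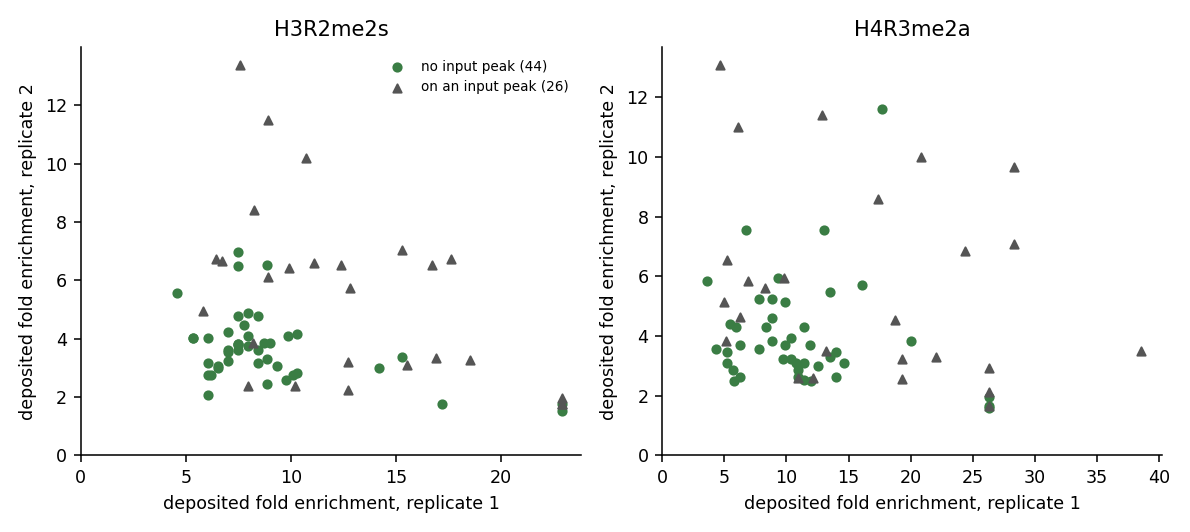
Deposited fold enrichment in replicate 1 (x axis) and replicate 2 (y axis) at the 70 regions covered in all 4 ChIP lists, for H3R2me2s (left) and H4R3me2a (right); circles are the 44 regions off input peaks and triangles the 26 on them. Folds reach 22.9 and 38.5 in replicate 1 and 13.4 and 13.1 in replicate 2, and the points follow no common rising line.

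Replicates of both marks overlapped less often here than over their whole lists, and in 1 of 4 such shares the Wilson intervals of the window and the rest of Z stood apart. An overlap is at least 1 bp. Of the 269 H3R2me2s peaks of replicate 1, 148 or 55% (95% Wilson interval 49 to 60.9) overlapped a peak of replicate 2, against 56.4% in the rest of Z and 65.9% over the whole list. Among peaks with a fold at or above the median of their whole list, 9.81 in replicate 1 and 2.87 in replicate 2, it was 32.3%. The window medians were 7.91 and 2.98, so this cut kept fewer than 50% of the window peaks of replicate 1. With both lists cut in this way, the share was not computed for the rest of Z or the whole list. Of the 357 peaks of replicate 2, 152 or 42.6% (37.6 to 47.8) overlapped replicate 1, against 48.7 and 56.3%. Of the 199 H4R3me2a peaks of replicate 1, 91 or 45.7% (39.0 to 52.7) overlapped replicate 2, against 49.4 and 68.5%.

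That share was H4R3me2a seen from replicate 2. Of its 241 peaks, 95 or 39.4% (33.5 to 45.7) overlapped replicate 1, against 58.2% (56.2 to 60.2) in the rest of Z and 51.2% over the whole list. In the 6 other windows of the grid, the end piece included, this share was 46.2 to 67.8%. The intervals cover counting error only and treat neighbouring peaks as independent, and no test between the window and other windows was made over peaks.

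The marks shared most of their sites within a platform, seen from H4R3me2a. In replicate 1, 142 of 199 H4R3me2a peaks or 71.4% (64.7 to 77.2) overlapped an H3R2me2s peak, against 71.7% in the rest of Z and 89.3% over the whole list. In replicate 2, 213 of 241 or 88.4% (83.7 to 91.8) did, against 87.0 and 84.3%. Seen from H3R2me2s, 143 of 269 peaks or 53.2% (47.2 to 59.0) overlapped H4R3me2a in replicate 1, against 62.6 and 69.4%, and 203 of 357 or 56.9% (51.7 to 61.9) in replicate 2, against 57.0 and 73.8%. In replicate 1 the intervals of this share stood apart for the window and the rest of Z, but the neighbouring windows had like shares, 54.0% from 15 to 25 Mb and 52.4% from 35 to 45 Mb, and the 6 other windows ran from 52.4 to 69.7%. In replicate 2 the intervals overlapped. Both lists of replicate 1 were called against 1 control library of 23.3 M tags, and its part in their overlap was not tested.

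**Figure D4:**
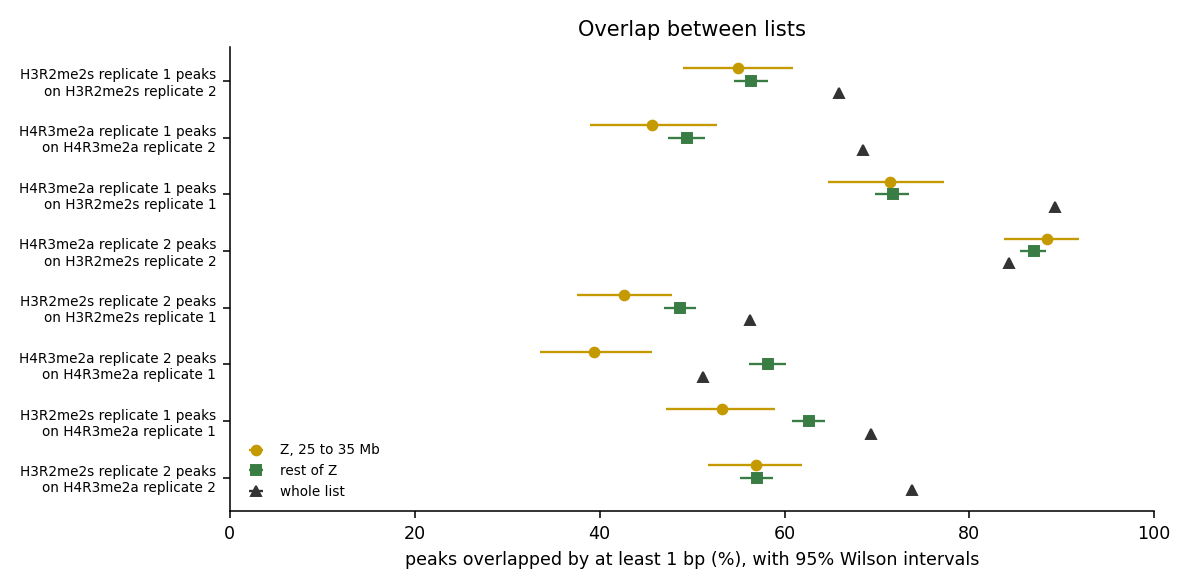
Percent of the peaks of 1 list overlapped by another (x axis), for the window, the rest of Z and the whole list, with 95% Wilson intervals as bars. In the window the H4R3me2a replicate 2 peaks overlapped replicate 1 in 39.4%, below the 58.2% of the rest of Z; most other pairs have overlapping intervals for the window and the rest of Z.

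Among regions with H3R2me2s in both replicates, the share with no H4R3me2a peak in either was larger on Z than over all chromosomes. The window shared this. The replicates of H3R2me2s shared 156 regions, 15.6 per Mb against 25.4 in the rest of Z, and 35 of them or 22.4% (95% Wilson interval 16.6 to 29.6) had no H4R3me2a peak. In the rest of Z the share was 17.9% (294 of 1639), and over all chromosomes it was 6.86%. Per Mb, such regions were fewer here, with 35 in 10 Mb against 294 in the other 64.6 Mb of Z. The larger share was thus not a larger number per Mb. The widest in the window were chromosome Z:32077289-32078091 (803 bp), Z:26073870-26074553 (684 bp) and Z:33177040-33177694 (655 bp). Their deposited H3R2me2s folds were 7.0, 6.19 and 7.0 in replicate 1 and 2.98, 2.59 and 3.61 in replicate 2. The medians of the window were 7.91 and 2.98, and the third region lay above the latter. No input peak touched these regions.

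The reverse case was rare. The replicates of H4R3me2a shared 99 regions, 9.9 per Mb against 21.2 in the rest of Z, and 3 of them or 3.03% (1.04 to 8.53) had no H3R2me2s peak, against 4.1% in the rest of Z and 2.32% over all chromosomes. These 3 were chromosome Z:28346600-28347032, Z:26534347-26534726 and Z:25760189-25760467, with widths of 433, 380 and 279 bp. Their deposited H4R3me2a folds were 8.84, 11.4 and 6.76 in replicate 1 and 3.34, 2.98 and 3.1 in replicate 2. A missing peak lay under the threshold of its caller at that depth, and the mark itself may be present there.

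Widths and folds of the peaks called in the window are given beside those of the rest of Z. Median widths of H3R2me2s were 599 bp in replicate 1 and 576 bp in replicate 2, against 650 and 582 bp in the rest of Z and 705 and 618 bp over the lists. Median widths of H4R3me2a were 634 and 459 bp, against 702 and 450 bp in the rest of Z and 803 and 432 bp over the lists. The median deposited fold of H3R2me2s was 7.91 and 2.98, against 7.81 and 2.83 in the rest of Z. The median fold of H4R3me2a was 9.36 and 3.46, against 9.75 and 3.22. Folds exist only for peaks that passed the caller, and no test of them was made between the window and the rest of Z.

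Peaks at least 2 kb wide were a small share of the peaks, lower here than over the lists in replicate 1 and higher in replicate 2. There were 7 in each list of replicate 1, or 2.6% of H3R2me2s and 3.52% of H4R3me2a peaks. The rest of Z had 3.56 and 4.46%, and the lists 6.94 and 9.16%. In replicate 2 there were 9 and 5, or 2.52 and 2.07%. The rest of Z had 2.11 and 0.919%, and the lists 2.01 and 0.541%. In each ChIP list some of these peaks lay in the block of input peaks. In replicate 2 the block gave those of 4028, 3027 and 2125 bp among the 9 of H3R2me2s. For H4R3me2a it gave those of 3602, 2995 and 2032 bp among the 5. The shares were not computed without the block, so a higher share in replicate 2 was not shown outside it.

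Input peaks gave the background without antibody. They touched 32 of 269 H3R2me2s peaks in replicate 1, or 11.9% (95% Wilson interval 8.55 to 16.3), against 6.67% in the rest of Z and 3.72% over the whole list. In replicate 2 they touched 40 of 357 or 11.2% (8.34 to 14.9), against 9.9 and 6.13%. For H4R3me2a they touched 25 of 199 peaks or 12.6% (8.66 to 17.9) in replicate 1, against 7.67 and 5.16%, and 36 of 241 or 14.9% in replicate 2, against 15.9 and 6.63%. Of the 55 input peaks, H3R2me2s overlapped 43 or 78.2% in replicate 1 and 53 or 96.4% in replicate 2, against 56.3 and 76.6% of the input peaks in the rest of Z. H4R3me2a overlapped 35 or 63.6% and 48 or 87.3%, against 65.4 and 77.5%. The share was thus higher in the window in 3 lists and lower in H4R3me2a replicate 1. A peak of each of the 4 ChIP lists lay on 33 of the 55, and 2 had no ChIP peak. The block held 14 of the 55. Of the 636 input peaks in the rest of Z, 357 lay from 65 to 74.6 Mb. These shares were not computed over the whole input list.

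The 3 longest clusters of input peaks with gaps of at most 2 kb were all in the block. They were chromosome Z:27965026-27972268 (7.24 kb, 5 peaks), Z:27927401-27930868 (3.47 kb, 4 peaks) and Z:27952729-27955611 (2.88 kb, 1 peak). Both marks covered 56.6 to 64.2% of the first in the 4 ChIP lists and 77.5 to 100% of the second.

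Between the sites lay stretches with no called peak of either mark, and their lengths were not compared with those in the rest of Z. Beyond the empty 646 kb at the lower edge, the longest with no peak in any ChIP list were chromosome Z:32512035-32647075 (135 kb) and Z:27619636-27740298 (121 kb), and neither held an input peak. The latter lies in the bin of highest cover.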

How the data were processed

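Peak lists of 5 ChIP-seq libraries were used, 1 per library and none pooled. Per the file headers, MACS 1.4.2 called replicate 1 at p 1e-05 with a control library, and MACS 2.0.10.20120913 called replicate 2 and the input at q 0.05 with none. Both kept 1 tag per position, per the file headers. The aligner is not given, and the build appears only as a folder name in some headers. For Illumina the authors deposited the pileup signal at each summit, and for SOLiD the tag count. Each list also has the deposited fold enrichment (a ratio). Illumina lists have a deposited −log10 p-value and q-value. SOLiD lists have a deposited score (10 times −log10 p) and a percent of false discoveries. These values were used only within a list.

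With Python 3.11.15, pandas 2.3.3, numpy 2.4.6 and scipy 1.17.1, peaks per Mb and cover were computed over Z, whose length of 74.6 Mb was the highest peak end. Gaps were not masked. Ratios were compared over libraries by exact permutation, 2-sided. The code was tested on simulated lists. Differences between libraries may be technical. Replicate numbers pair the libraries by platform, per the labels' protocols; differences between replicates of the 2 marks correlated over 149 bins of Z (r = 0.71 for peaks, 0.77 for cover). Regions were named by fixed rules (extremes by bin cover, width, chain length and rank of fold). Members and rules were chosen with earlier results of these data known. Alternatives were an upper 50% of each list, peaks off input, other windows, overlap of 50%, and leaving out a replicate, the block or the empty stretch.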

Additional observations from a re-analysis of the deposited data

How the results depend on the processing

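Of 126 alternative values, 37 came from settings added after seeing the data (without the block of input peaks, without the empty stretch, or without both). All 38 alternative density and cover ratios of the marks stayed below 1. The upper 50% by fold was cut at the median of each whole list, not of the window. With it the H3R2me2s ratio was 0.734 for density and 0.762 for cover, and the input ratio was 0.81 and 1.48. The overlap of H3R2me2s replicates was then 32.3%, and that of H4R3me2a with H3R2me2s in replicate 2 was 79.7%. Off input peaks the replicates overlapped in 48.1% (H3R2me2s) and 38.5% (H4R3me2a), and the ratio of regions in all 4 lists was 0.375. With an overlap of at least 50% of the peak these overlaps were 48.7 and 34.2%. Under these settings no overlap was computed for the rest of Z. Leaving out a replicate gave regions in the 2 ChIP lists of the other one, with a ratio of 0.528 for replicate 1 and 0.693 for replicate 2. Without the last 5 Mb of Z, which hold many input peaks, the input ratio was 1.01 for density and 1.98 for cover; without the block it was 0.418 and 0.483, and without block and empty stretch 0.51 for cover. The difference between the marks in log2 cover turned to 0.02 among the 50% of highest fold, and was −0.27 to 0.04 when a replicate was left out; the cause was not tested. With the replicate block, a sign flip within pairs of the same platform, it was −0.11 (exact permutation p = 1.0), and for density −0.14 (exact permutation p = 0.5, the smallest 2 pairs allow). No call could change, because so few libraries cannot reach the threshold of 0.05. Depth limits which peaks pass a threshold, and the pileup limit hides differences at the highest sites.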

Other observations

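Peaks of the window were spread differently over its first and last 5 Mb in the lists. From 25 to 30 Mb and from 30 to 35 Mb H3R2me2s had 130 and 139 peaks in replicate 1 and 199 and 158 in replicate 2, and H4R3me2a had 100 and 99 in replicate 1 and 129 and 112 in replicate 2. The input had 29 and 26. The first 5 Mb include the 646 kb without any peak. Cover was higher in the first 5 Mb in all 5 lists, at 2.31 against 2.02% and 2.99 against 2.23% for H3R2me2s, 1.92 against 1.5% and 1.75 against 1.28% for H4R3me2a and 0.262 against 0.177% for the input. The block of 44.9 kb also lies in the first 5 Mb. It held 14.5 and 6.53% of the bases of the window covered by H3R2me2s in replicates 1 and 2. For H4R3me2a it held 18.2 and 9.56%, and for the input 47.5%. In kb, these bases of the block were 31.3 and 17.1 for H3R2me2s in replicates 1 and 2. They were 31.2 and 14.5 for H4R3me2a and 10.4 for the input. Cover of the 2 parts was not computed without the block, so the order of the 2 parts outside it is not given.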
